A study of Caenorhabditis elegans with 2 samples.

Results

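MADF-3 binding was examined at the small nucleolar RNA (snoRNA) genes of Caenorhabditis elegans. The members were all genes of biotype snoRNA on the 6 nuclear chromosomes in Ensembl's annotation of the WBcel235 assembly, which numbered 346 of 46890 genes of every biotype. Each was scored for a peak summit within 500 bp of its 5' end in the thresholded peak list made from both replicates. The study measured one condition by ChIP-seq with an antibody against GFP. The worms were whole young adults of strain RW12241, aged 63 hours per the labels and synchronised by starving L1 larvae after bleaching. Their madf-3 gene carries a CRISPR insertion on chromosome II (st12241[madf-3::TY1::EGFP::3xFLAG]), which joins TY1, EGFP and 3xFLAG tags to the protein. The 2 samples are labelled as biological replicates, and the tag, strain, stage and antibody are common to both. No second condition, untagged strain or control library was compared here. Whole worms mix all tissues, so a peak cannot be assigned to a cell type.

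MADF-3 belongs to a family named for a DNA-binding domain of the Myb/SANT type, which was described in the Drosophila transcription factor Adf-1. snoRNAs guide the chemical modification of ribosomal and other stable RNAs. Box C/D snoRNAs direct 2'-O-methylation by fibrillarin, and box H/ACA snoRNAs direct pseudouridylation by dyskerin. In C. elegans many snoRNA genes lie in the introns of protein-coding host genes, whereas others stand alone. Transfer RNA genes, to which some of the sequences below were compared, are transcribed by RNA polymerase III from internal promoter elements called the A box and the B box.

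The bases just upstream of 11 members are shown here because most summits at snoRNA genes fell in this stretch. They were chosen to show each pair of letters described below with and without a summit, and they are not the 11 strongest members. Each run holds the 120 bases before the annotated 5' end, read 5' to 3' on the strand of the snoRNA gene, from the RefSeq genome of the WBcel235 assembly (ce11). In the first 6 sequences capitals mark the letters TGGNNNAG followed by GTTCNA, which resemble the A and B boxes of tRNA genes and are called an A/B-like pair.
C51F7.3 (chrV:12303588-12303707, plus strand): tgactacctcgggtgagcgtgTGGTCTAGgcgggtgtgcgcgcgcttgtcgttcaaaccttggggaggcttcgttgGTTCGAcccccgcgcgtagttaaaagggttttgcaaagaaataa
W03C9.9 (chrII:11960778-11960897, plus strand): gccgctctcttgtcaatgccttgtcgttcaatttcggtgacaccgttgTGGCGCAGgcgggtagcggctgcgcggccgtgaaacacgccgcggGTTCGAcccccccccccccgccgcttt
T03F7.8 (chrV:11314138-11314257, plus strand): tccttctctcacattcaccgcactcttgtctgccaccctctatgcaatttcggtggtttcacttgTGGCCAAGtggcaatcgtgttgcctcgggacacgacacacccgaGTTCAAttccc
F32E10.10 (chrIV:7574002-7574121, plus strand): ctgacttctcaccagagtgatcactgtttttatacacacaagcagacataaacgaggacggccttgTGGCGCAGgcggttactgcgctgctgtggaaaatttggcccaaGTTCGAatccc
T06C12.16 (chrV:15873927-15874046, minus strand): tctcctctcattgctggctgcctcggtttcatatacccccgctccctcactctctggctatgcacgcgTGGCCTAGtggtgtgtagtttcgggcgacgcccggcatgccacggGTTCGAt
F30H5.4 (chrIII:502684-502803, plus strand): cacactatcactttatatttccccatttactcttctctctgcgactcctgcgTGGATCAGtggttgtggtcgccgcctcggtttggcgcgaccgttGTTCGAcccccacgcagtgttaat
The first 5 of these genes had a summit between 20 and 93 bp upstream, whereas F30H5.4 had no summit within 500 bp and shows that the letters also occurred without one. In the next 4 sequences capitals mark the letters CGNAAC followed 14 bases later by TGTCGG. ZK994.7, T26A8.6 and C16D9.11 had a summit upstream, and C07A9.14 had none.
ZK994.7 (chrV:8500459-8500578, plus strand): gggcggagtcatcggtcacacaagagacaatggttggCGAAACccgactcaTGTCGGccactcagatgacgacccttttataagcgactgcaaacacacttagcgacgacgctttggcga
T26A8.6 (chrIV:8428740-8428859, minus strand): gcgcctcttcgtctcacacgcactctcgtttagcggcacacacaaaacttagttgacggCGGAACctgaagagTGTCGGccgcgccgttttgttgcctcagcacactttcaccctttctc
C16D9.11 (chrV:8228970-8229089, minus strand): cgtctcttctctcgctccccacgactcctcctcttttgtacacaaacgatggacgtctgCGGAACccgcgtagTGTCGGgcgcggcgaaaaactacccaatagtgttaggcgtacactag
C07A9.14 (chrIII:9717260-9717379, plus strand): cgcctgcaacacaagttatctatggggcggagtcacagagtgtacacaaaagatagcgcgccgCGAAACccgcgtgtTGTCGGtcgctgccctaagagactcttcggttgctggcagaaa
The last sequence belongs to F09G2.14, the member with the highest signal, which held neither pair. Its capitals mark the 11 bases centred on the summit.
F09G2.14 (chrV:7196581-7196700, minus strand): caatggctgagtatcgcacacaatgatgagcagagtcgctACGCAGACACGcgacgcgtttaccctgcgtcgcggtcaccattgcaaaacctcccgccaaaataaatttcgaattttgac
The 2 pairs of letters were picked after these sequences had been seen, so their occurrence is a description and a match is not a binding site.

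MADF-3 summits were found near a large minority of the snoRNA genes, and most of them stood just upstream of the RNA's own 5' end. Of 346 members, 102 (29.5%, exact Clopper-Pearson 95% interval 24.7 to 34.6%) had a summit within 500 bp, at 97 distinct peaks. The share over all genes was 4.59%, over protein-coding genes 6.26%, over tRNA genes 27.3% and over snRNA genes 21.7%. A summit between 0 and 100 bp upstream, called an upstream summit below, was found at 58 members (16.8%, interval 13.0 to 21.1%). The corresponding share was 0.804% over all genes, 0.991% over protein-coding genes, 6.86% over tRNA genes and 10.9% over snRNA genes. The 100 bp bound was chosen with earlier results of these data known. It holds the median summit position of snoRNA genes (-42.5) and snRNA genes (-8) but not that of protein-coding genes (-145) or tRNA genes (15). The size of these differences thus depends in part on the bound. Intervals cover the counting of genes only, and no test was made of these differences. The counts fell with the shorter replicate lists: with replicate 2's own list of 863 peaks, without replicate 1, 48 members had a summit and 30 had it 0 to 100 bp upstream. With replicate 1's own 962 peaks, without replicate 2, these counts were 63 and 34, against the 2741 peaks of the list from both.

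**Figure D1:**
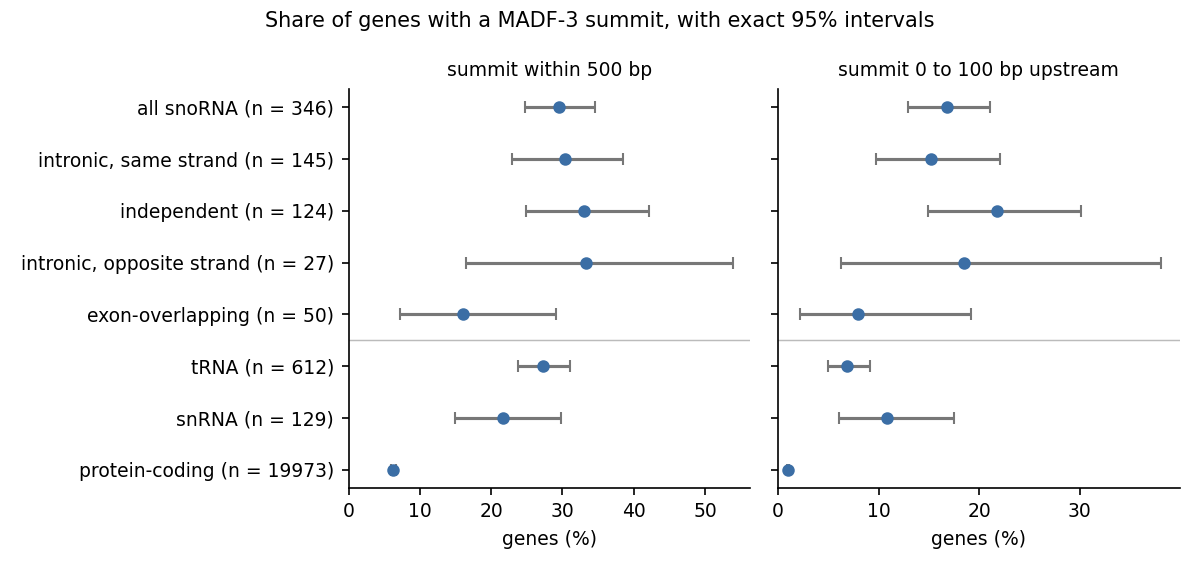
Share of genes with a MADF-3 summit within 500 bp of the 5' end (left) and 0 to 100 bp upstream of it (right), in percent, for snoRNA genes by location and for 3 other biotypes. Points are shares and bars are exact 95% intervals. snoRNA genes stand at 29.5% and 16.8%, and protein-coding genes at 6.26% and 0.991%. The 100 bp bound was chosen with earlier results of these data known.

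The median position of the nearest summit was 42.5 bp upstream of the snoRNA 5' end (position -42.5, interquartile range -69.75 to 1.25, n = 102 genes). In bins of 50 bp, 30 summits lay from 100 to 50 bp upstream and 28 from 50 bp upstream to the 5' end, whereas no other bin held more than 5. Among genes with a summit within 500 bp, 56.9% of snoRNA genes had it 0 to 100 bp upstream, against 14 of 28 snRNA genes, 25.2% of tRNA genes and 15.8% of protein-coding genes. The median position was -145 at protein-coding genes, 15 at tRNA genes and -8 at snRNA genes. At 89 of the 102 members the summit was nearer to the snoRNA 5' end than to any protein-coding 5' end (42 without replicate 1 and 52 without replicate 2). Of the 58 upstream summits, 57 were nearer to the snoRNA, and 46 had no protein-coding 5' end within 500 bp. These summits were chosen by nearness to the snoRNA, within 500 bp or within 100 bp, which favours the snoRNA in such counts. For the 58, only a protein-coding 5' end within 100 bp of the summit could be nearer. The same limit holds for the location classes below. Another small RNA gene of the tRNA or snRNA biotypes lay within 500 bp of the same summit at 2 members. These were M163.14, with a tRNA gene 5' end 49 bp from the summit, and smy-2, with the snRNA gene smy-1 at 290 bp.

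**Figure D2:**
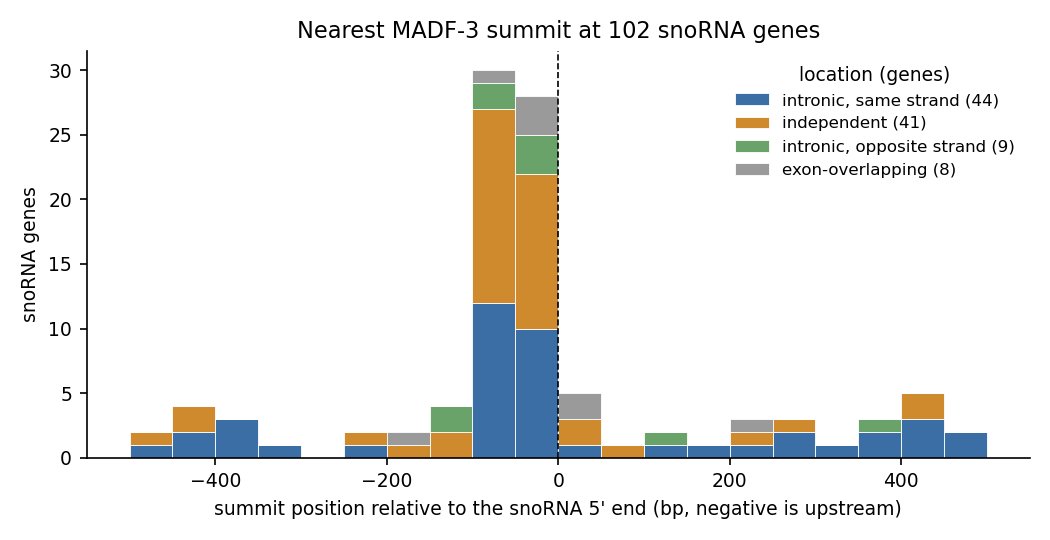
Position of the nearest MADF-3 summit relative to the snoRNA 5' end, in bp, for the 102 snoRNA genes with a summit within 500 bp, counted in 50 bp bins and coloured by location. The 2 bins that span 100 bp upstream hold 30 and 28 genes, with every location class in both.

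The precision of these positions was set by the replicates. The summit in replicate 1's ranked list and that in replicate 2's differed by a median of 25 bp and at most 290 bp. At the 58 genes with an upstream summit the median positions were -50 in replicate 1 and -41 in replicate 2, and each replicate's own summit lay 0 to 100 bp upstream at 48 of them. Signal is the peak caller's strength as deposited, and its scaling was not given in the sources used here, so values from the list of both replicates and from the replicate lists are not compared with each other. Over the 97 peaks the median signal was 45.9 in replicate 1 and 42.5 in replicate 2. Of the 94 peaks with a value in both, 91 were within 2-fold between replicates. The thresholded list keeps peaks by how well their ranking repeats between sets, which favours such closeness. A peak of replicate 1's own thresholded list overlapped 55 of the 97, one of replicate 2's overlapped 47, both overlapped 38 and neither 33. The conservative list, made by comparing the true replicates, held 83. In the list from both replicates the median signal was 94.5 at the 58 genes with an upstream summit and 77.4 at the other 44.

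**Figure D3:**
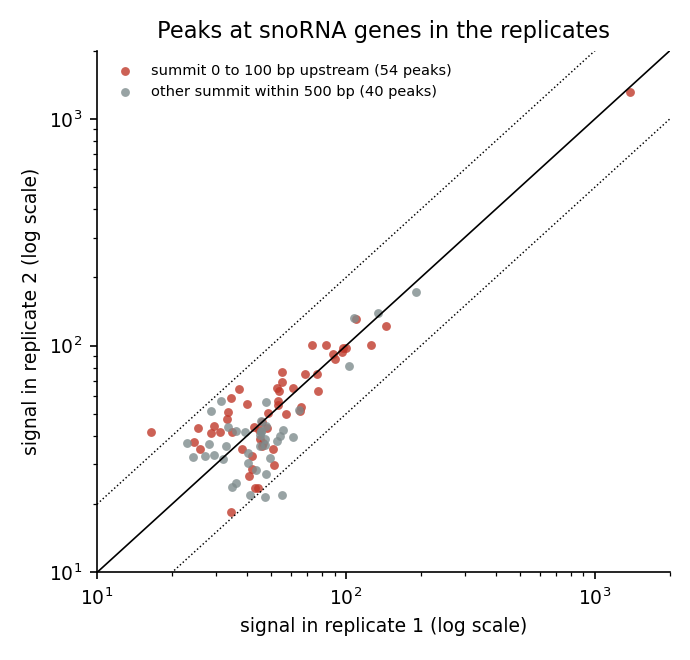
Signal of the peaks at snoRNA genes in replicate 1 and replicate 2, both on log scales, for the 94 peaks with a value in both. The solid line marks equal signal and the dotted lines a 2-fold difference. The peak of F09G2.14 stands alone at 1388 and 1313.

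Independent snoRNA genes, which overlap no protein-coding gene, numbered 124, and 41 had a summit within 500 bp (33.1%, interval 24.9 to 42.1%). Without replicate 1 the count was 18 and without replicate 2 it was 23. The summit lay 0 to 100 bp upstream at 27, and at 40 of 41 it was nearer to the snoRNA than to a protein-coding 5' end. F09G2.14 (chrV:7196237-7196580) had the highest signal of any member, 2721 in the list of both replicates, which ranked 3 among the 2741 peaks. Its signal was 1388 in replicate 1 and 1313 in replicate 2 (1350.5 ± 53.3, SD, n = 2), with the summit 75 bp upstream. The 5' end of the protein-coding gene F09G2.2 lay 261 bp from that summit. F09G2.14 stood far above the rest, since the next independent member, W03C9.9 (chrII:11960898-11960959), had 227. W03C9.9 read 126 in replicate 1 and 101 in replicate 2 (114 ± 17.9, SD, n = 2), with its summit at -60.

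The other strong independent members had summits at like positions and no protein-coding 5' end within 500 bp of the summit. Y23H5B.10 had a signal of 202 at -42, with 97.1 and 98.0 in the replicates, and the nearest protein-coding 5' end was 16219 bp away. F59C6.15 had 193 at -49, with 83.3 and 100.2 in the replicates. T19B4.8 had 188 at -58, with 96.7 and 93.6 in the replicates. The replicate values of F59C6.15 spanned those of the other 2, so its place among them cannot be read. F32E10.10 followed with 186 at -20, and 90.5 and 87.4 in the replicates. The remaining independent members with an upstream summit were ZK265.10, T26A8.6, T06C12.16, Y75B12B.12, Y39G10AR.24, F25H2.15, Y74C9A.6, M03D4.78, H09I01.2, C36E8.11, T10B9.11, Y67A10A.14, F47G4.9, C46C2.8, Y51H4A.940, ZK20.9, Y53F4B.48, F12F6.11, K09E9.5, ZK643.9 and C18A3.12. Their signals ran from 151 at ZK265.10 down to 59.5 at C18A3.12. F12F6.11 was the least even of them, with 16.5 in replicate 1 and 41.7 in replicate 2, and C46C2.8 had a value in replicate 1 (32.5) and none in replicate 2.

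Intronic snoRNA genes, which lie within an intron of a protein-coding gene on the same strand, numbered 145, and 44 had a summit within 500 bp (30.3%, interval 23.0 to 38.5%). Without replicate 1 the count was 23 and without replicate 2 it was 27, and with a window of 200 bp it was 25. The summit was 0 to 100 bp upstream of the snoRNA at 22. They are described below by whether the host encodes a ribosomal protein, and the difference between the host kinds was not tested.

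In hosts other than ribosomal protein genes, most summits near a snoRNA were not near the host's start. These hosts, 113 genes, held 126 snoRNA genes, of which 34 had a summit (26.98%, interval 19.5 to 35.6%) and 20 had it 0 to 100 bp upstream. Over the 34, the median distance from the summit to the host's own 5' end was 1801 bp, 4 were within 500 bp of it and 29 were nearer to the snoRNA than to any protein-coding 5' end. For the 20 upstream summits, which were chosen by their nearness to the snoRNA, the median distance to the host's 5' end was 3060.5 bp and 0 were within 500 bp of it. ZK994.7 (chrV:8500579-8500645), in an intron of the peroxidasin gene pxn-1, had a signal of 275 at -25, with 145 and 122 in the replicates (133 ± 16.1, SD, n = 2). The summit was 5665 bp from the 5' end of pxn-1. Y49E10.36, in the histone H3.3 gene his-72, had 234 at -1, with 110.1 and 131 in the replicates, and the 5' end of his-72 was 505 bp away. The longest separation was at M106.6, in the condensin subunit gene mix-1, where the summit lay 40 bp upstream of the snoRNA and 16031 bp from the start of mix-1.

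Further members of this kind were hosted by genes of unrelated functions. C16D9.11 lies in the receptor tyrosine kinase gene rol-3 and had a signal of 93.3 at -69, with 40.0 and 55.2 in the replicates. T08B2.13 lies in fars-1, a phenylalanyl-tRNA synthetase subunit gene, and had 87.3 at -49, with 46.5 and 37.3 in the replicates. C05D2.15 lies in madf-11, which by its name belongs to the same domain family as madf-3, and had 85.0 at -63, with 44.8 and 42.5 in the replicates. For all 3 the summit was over 1000 bp from the host's start, at 9371 bp for C16D9.11, 1812 bp for T08B2.13 and 1247 bp for C05D2.15. The others were C51F7.3 in frm-7, Y37E3.20 in pcyt-2.1, F55A11.10 in F55A11.6, F38E11.14 in cng-3, D1046.6 in cfim-2, C27H6.5 in unc-41, T06D8.11 in plpr-1, ZK546.18 in mdt-4, C08D8.3 in C08D8.1, smy-2 in C33A12.3, F11A10.9 in rbm-34, C10C6.8 in catp-8, F01D5.12 in F01D5.10 and Y38F2AR.14 in Y38F2AR.12. Of these, C51F7.3 was the strongest at 244 and Y38F2AR.14 the weakest at 61.6. C08D8.3 had a value in replicate 2 (49.5) and none in replicate 1.

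The 13 ribosomal protein hosts held 19 snoRNA genes, of which 10 had a summit within 500 bp (52.6%, interval 28.9 to 75.6%) and 2 had it 0 to 100 bp upstream (10.5%, interval 1.30 to 33.1%, against 15.9%, interval 9.97 to 23.4%, in other hosts). Over the 10, the median distance from summit to host 5' end was 569 bp, 4 were within 500 bp of it and 5 were nearer to the snoRNA than to any protein-coding 5' end. For the 2 upstream summits the median distance to the host's 5' end was 400.5 bp. Y24D9A.9, in rpl-7A, had the highest signal of any intronic member, 354, with 191 and 172 in the replicates (182 ± 13.5, SD, n = 2). Its summit lay 361 bp upstream of the snoRNA and 79 bp from the 5' end of rpl-7A, so it was nearer to the host's start. F54E7.10, in rps-12, had 275 at -249, with 134 and 139.8 in the replicates, and that summit was 124 bp from the 5' end of ska-3. D1007.20, in rpl-24.1, had 84.6 at -410, and the summit was 276 bp from the host's start.

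At 3 of the other ribosomal protein hosts the summit lay downstream of the snoRNA 5' end. Y43B11AR.7 in rps-4 had 186 at 334, and the 5' end of Y43B11AR.3 was 120 bp from that summit. B0412.7 in rps-29 had 78.9 at 421, with the 5' end of trpp-11 at 27 bp. C16A3.11 in rps-13 had 80.9 at 473, and the nearest protein-coding 5' end was that of rps-13 at 922 bp. The 3 snoRNA genes R151.11, R151.12 and R151.13 in rpl-6 shared 1 peak of signal 62.4, whose summit was 3 bp upstream of R151.12. That peak was in neither replicate's own thresholded list, with 36.03 and 24.76 in the replicates. F53G12.12 in rpl-7 was the other member with an upstream summit, at -22, with a signal of 70.3 (44.3 and 23.6 in the replicates), and the summit was 232 bp from the start of rpl-7. The intervals of both shares overlap between the host kinds.

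**Figure D4:**
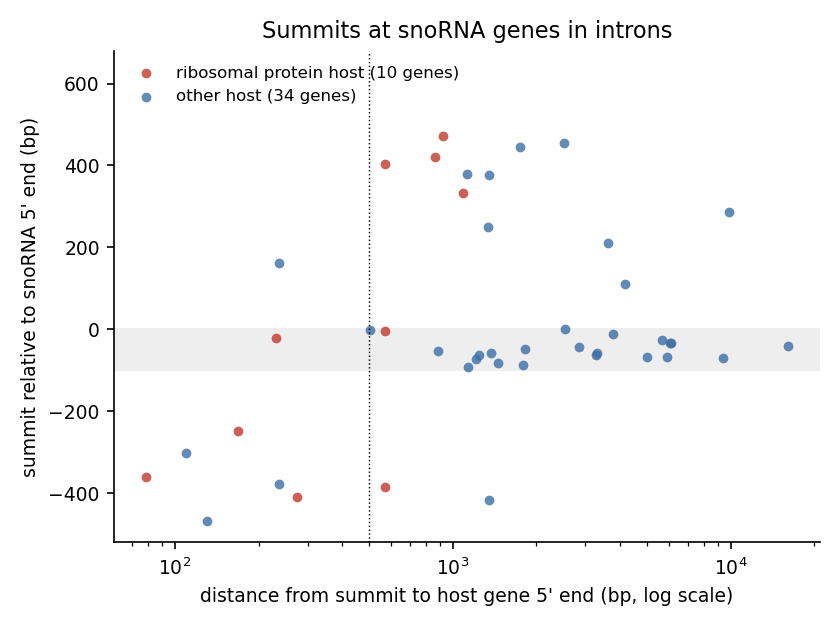
Position of the summit relative to the snoRNA 5' end (vertical axis, bp, negative is upstream) against its distance from the 5' end of the host gene (horizontal axis, bp, log scale) for the 44 intronic members with a summit. The grey band spans 0 to 100 bp upstream and the dotted line marks 500 bp. The 20 members in the band with other hosts lie to the right of the line.

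Hosts with several snoRNA genes did not always carry summits. The Nop56 gene nol-56 holds 4, of which 2 had a summit. K07C5.11 had it at -378 (signal 101.4, and 236 bp from the start of nol-56). K07C5.18 had it at 454 (80.6, and 304 bp from the 5' end of K07C5.9). F17C11.14 and F17C11.15 in the elongation factor gene eef-1G shared 1 peak of signal 59.7 that lay between them, at -416 and 376. The DNA topoisomerase II gene top-2 holds 3 snoRNA genes and none had a summit. Other hosts had summits away from the snoRNA start, such as hsp-1, the Hsc70 gene, whose F26D10.24 had 103 at 250, and tct-1, whose F25H2.14 had 64.6 at 162. The summit at F25H2.14 was nearer to a protein-coding 5' end, that of F25H2.12 at 64 bp, and 237 bp from the start of tct-1.

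Members inside a protein-coding gene on the opposite strand numbered 27, and 9 had a summit (33.3%, interval 16.5 to 54.0%), with 5 of them upstream. T03F7.8, opposite to an intron of the cuticlin-like gene cutl-18, was the strongest at 207, with 100.3 and 97.4 in the replicates (98.8 ± 2.04, SD, n = 2), and its summit at -54 was 2697 bp from any protein-coding 5' end. C04G6.12, opposite to the MAP kinase gene mpk-2, had 107 at -35, with 34.6 and 58.8 in the replicates. Y48A6C.10, opposite to sup-35, had 96.0 at -123, outside the 100 bp. ZK484.9 opposite to haf-9 had 86.8 at -20 and C05H8.3 opposite to ckk-1 had 65.8 at -52. C27H5.9 (-28) and C27H5.10 (386) shared 1 peak of signal 74.4 in pdl-1.

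Members that overlap an exon of a protein-coding gene numbered 50, and 8 had a summit (16.0%, interval 7.17 to 29.1%), the lowest share among the 4 locations, with intervals that overlap. C51F7.4 had 244 at 16 bp downstream, from the same peak as C51F7.3. The 120 bases printed above for C51F7.3 overlap the annotated C51F7.4 gene (chrV:12303599-12303693), so its A/B-like letters lie inside a neighbouring snoRNA gene. F39B2.14 in tmem-107 had 172 at -93, but the start of tmem-107 was 32 bp from that summit. T02E1.9 in spe-12 had 106 at -6, T27A3.9 in T27A3.8 had 97.0 at -34 and Y71G12B.41 in Y71G12B.31 had 54.8 at -21. F41E6.18 in smk-1 had 91.3 at -172. A summit up to 100 bp downstream of the 5' end was found at 6 members of any location: C51F7.4, C53B7.8 (24), W08G11.6 in W08G11.3 (2), K02C4.8 (3), K09H9.11 in vbh-1 (15) and W06H8.17 (96). Apart from C51F7.4 their signals ran from 45.8 at W06H8.17 to 95.01 at C53B7.8.

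The A/B-like pair was held by 21 of the 346 members within 120 bases upstream. Of these 21, 14 had a summit 0 to 100 bp upstream, 0 had a summit elsewhere within 500 bp and 7 had none. The search asked for TGGNNNAG and GTTCNA on the gene's strand, with starts more than 20 and fewer than 75 bases apart, and the 2 motifs share no bases. The pair was found in 0.1752% of the same windows at protein-coding genes and in 60.1% of the first 90 bases of tRNA genes. On the opposite strand it was found at 0 of 346 members and in 0.2003% of protein-coding windows. At the 21 members TGGNNNAG started at a median of -60 and GTTCNA at -14, with a median spacing of 44 bases (35 to 55).

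In the list from both replicates, summits at these genes lay between the 2 elements or at the first. In the replicates' own ranked lists this did not hold for every gene. The summit was at 58 for Y75B12B.12 in replicate 2 and at -84 for T19B4.8 in replicate 1, both outside the pair. For the 14 with a summit, the median offset from the start of TGGNNNAG was 11.5 bp (interquartile range 4.25 to 21.75), which is within the replicates' median difference of 25 bp. At the 89 tRNA genes with the pair and a summit within 100 bp, TGGNNNAG started at a median of 7 bp into the gene. The summit stood a median of 1 bp from that start (interquartile range -15 to 19), an offset that the 100 bp window bounds. The 14 genes comprised 7 independent members, 5 intronic ones and 2 on the opposite strand. They were C51F7.3, W03C9.9, T03F7.8, T19B4.8, F32E10.10, T06C12.16, Y75B12B.12, Y39G10AR.24, F55A11.10, C04G6.12, ZK546.18, T08B2.13, T10B9.11 and M106.6. Their median signal was 133, from 78.2 at M106.6 to 244 at C51F7.3, and the replicate medians were 67.4 and 66.2. With the narrower letters TGGCNNAG and GTTCGA, 11 members held the pair.

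The 7 members with the pair and no summit were followed in the ranked list made from both replicates, which also holds candidate peaks below the threshold. Candidates are common in that list, with one within 500 bp of 57.1% of all genes and 74.4% of protein-coding genes. There, K11C4.6 in unc-70 had a candidate of 45.3 at -57 and T24H7.6 in T24H7.2 one of 48.5 at -94. F30H5.4 had a candidate of 53.1 at 9. R12E2.17 had one of 34.8 at 89 and T23B12.13 one of 49.6 at 406. Y59E1B.14 and Y43F8C.22 had none within 500 bp in that list. In the replicates' own ranked lists, Y43F8C.22 had a candidate of 49.5 at -40 in replicate 1 and none in replicate 2, and Y59E1B.14 had none in either. The strongest ranked candidate was 0 to 100 bp upstream at 16 of the 19 members with the pair and any candidate. At 14 of these 16 it was the thresholded summit already counted above, and the others were K11C4.6 and T24H7.6. Over all 297 members with a candidate it was 0 to 100 bp upstream at 94 (31.65%).

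The letters CGNAAC and TGTCGG, with starts more than 5 and fewer than 25 bases apart, were held by 24 members, and no member held both pairs. Of the 24, 12 had a summit 0 to 100 bp upstream, 4 had one elsewhere within 500 bp and 8 had none. The spacing was 14 bases in each of the 24. CGNAAC started at a median of -62.5 and TGTCGG at -48.5. The pair was found in 0.03004% of the same upstream windows at protein-coding genes. For tRNA genes the first 90 bases inside the gene were searched instead, and 0 of 612 held the pair. The stretches upstream of tRNA and snRNA genes were not searched, so the pair's share there is unknown. On the opposite strand the pair was found at 0 of 346 members and in 0.01502% of protein-coding windows. Its holders were 13 independent, 6 intronic and 5 opposite-strand members.

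The 12 with an upstream summit were ZK994.7, F59C6.15, Y37E3.20, T26A8.6, F25H2.15, Y74C9A.6, C16D9.11, C08D8.3, Y67A10A.14, smy-2, F47G4.9 and C05H8.3. Their median signal was 108, from 65.8 at C05H8.3 to 275 at ZK994.7. Their summits stood a median of 15 bp from the start of CGNAAC (interquartile range 0.25 to 31.5, beside 4.25 to 21.75 at the A/B-like pair). These 2 ranges rest on 12 and 14 genes, and their difference was not tested. The 12 were chosen by an upstream summit, which bounds the offset. The 14 were all the holders of the A/B-like pair with a summit within 500 bp. Over all 16 holders of CGNAAC and TGTCGG with such a summit, the median was also 15 bp and the interquartile range was -9.75 to 45.75. The 4 with a summit elsewhere were Y48A6C.10 (-123), Y105C5A.1283 (-110), W04D2.7 (110) and W03B1.17 (280).

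Members with neither pair numbered 301, and 32 of them (10.6%) had a summit 0 to 100 bp upstream, with a median signal of 79.8. The strongest of these 32 were F09G2.14, Y49E10.36, Y23H5B.10, F39B2.14 and ZK265.10. Among the 19 members in ribosomal protein hosts, 0 held either pair. Over all 346 members, 6.07% held the A/B-like pair and 6.94% held CGNAAC and TGTCGG. At such shares few of 19 would hold one, so the 0 is not read as a trait of these hosts.

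**Figure D5:**
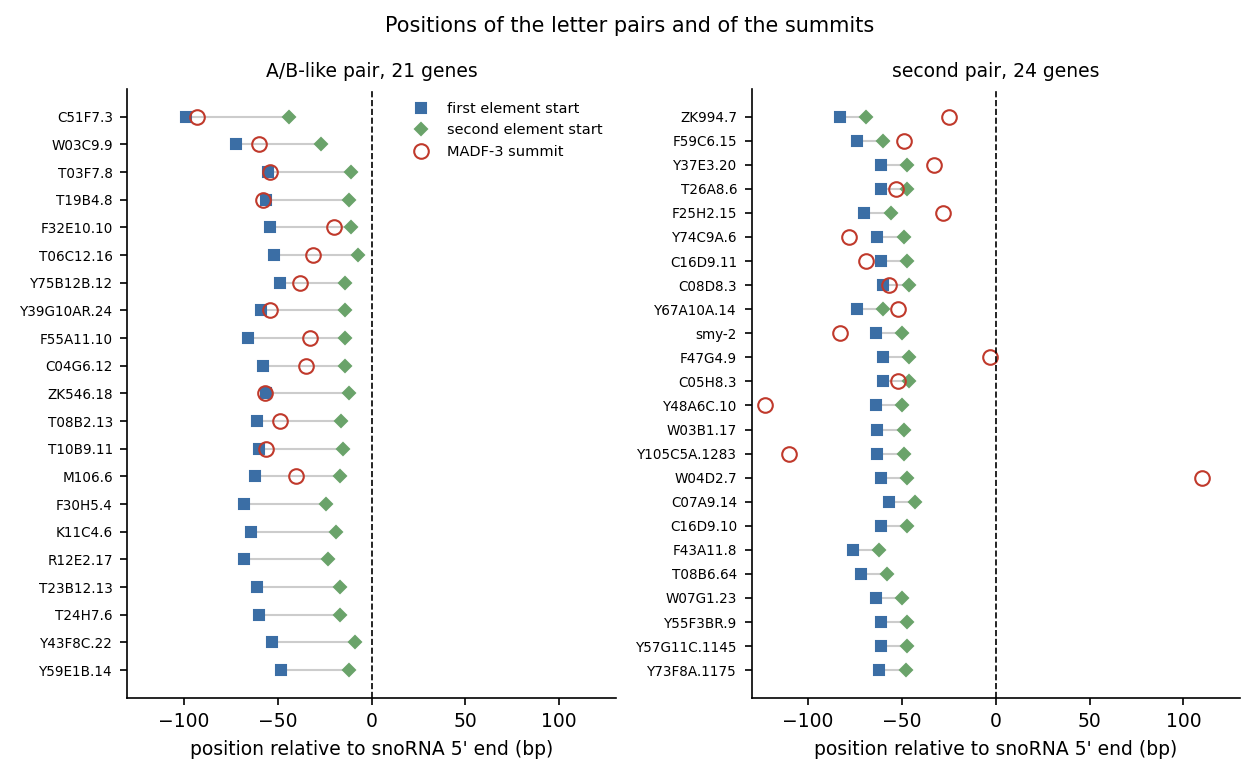
Start of each element of the letter pairs (squares and diamonds) and MADF-3 summit (open circles), in bp relative to the snoRNA 5' end, for the 21 genes with the A/B-like pair (left) and the 24 with CGNAAC and TGTCGG, titled the second pair (right). Genes run from the highest to the lowest signal within those with an upstream summit, then those with another summit, then those with none; the summit of W03B1.17 at 280 bp lies beyond the axis.

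The 250 bases upstream of the 58 members with an upstream summit had a median GC content of 43.8%, against 42.4% at the 44 with another summit, 38.8% at the 244 with none and 33.2% at protein-coding genes. Base composition thus moved with the summits, and its part in the result was not tested. TATAAA was found on the gene's strand in 15.52%, 11.36% and 13.52% of these 3 groups of windows and in 22.4% of those at protein-coding genes. The letters of the snoRNA boxes were searched within the annotated genes. TGATGA in the first 25 bases with CTGA in the last 20, as in box C/D snoRNAs, was found in 13 genes. Of these 13, 6 had a summit (46.15%), all 6 had it 0 to 100 bp upstream, and 8 held one of the letter pairs. ACA in the last 9 bases, as in box H/ACA snoRNAs, was found in 96. Of these 96, 39 had a summit (40.62%) and 15 had it 0 to 100 bp upstream (15.62%). Over all 346 members the shares were 29.48% and 16.76%, so the upstream share with ACA was near that of all members. A further 2 had both and the rest had neither, so exact letters did not sort most members by class.

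By chromosome, the share of members with a summit ran from 12.1% (4 of 33 genes, interval 3.40 to 28.2%) on X to 39.0% (23 of 59, interval 26.6 to 52.6%) on IV. The share of protein-coding genes was also lowest on X, at 2.27%, and it was 7.01% on IV and highest on III, at 9.36%. The 4 on X were M163.14, C53B7.8, K09E9.5 and W01H2.11, with signals from 59.8 to 104, and K09E9.5 was the one with an upstream summit. Just inside the 500 bp bound were JC8.15 at -467, C16A3.11 at 473 and W01H2.11 at -477. Just outside it were ZK484.11 at -502 (signal 71.1), C06A1.9 at -514 (480) and K08F11.8 at 514 (63.9).

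The 244 members without a thresholded summit were followed in the ranked list from both replicates. A candidate lay within 500 bp of 195 of them (79.9%, interval 74.3 to 84.8%), and 49 had none. Over protein-coding genes without a thresholded summit the share was 72.6%, so a candidate nearby was common in either group. The median signal of the strongest candidate was 35.8 at these members and 30.0 at those protein-coding genes, and that of the whole list was 25.2. The strongest candidate stood 0 to 100 bp upstream at 94 members (27.2%), against 6.52% of all genes and 8.08% of protein-coding genes. The 94 comprised the 58 above and 36 of the 244 (14.8%, interval 10.55 to 19.8%), where the share over protein-coding genes without a thresholded summit was 7.58%. In the replicates' own ranked lists the strongest candidate was in that stretch in both at 55 members.

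Genes for the core proteins bound to snoRNAs, and for assembly, nucleolar and cap factors, were scored at their 5' ends in the same way. Of 12 such genes, 4 had a summit within 500 bp (33.3%, beside 6.26% of protein-coding genes). Among the box C/D core proteins, nol-58 had a signal of 183 at -304, with 81.5 and 103.8 in the replicates, and nol-56 had 101.4 at -236, with 47.5 and 56.7. The nol-56 peak is the same one given above for the intronic member K07C5.11. The fibrillarin gene fib-1 and snu-13 had none. Among the box H/ACA core proteins, the dyskerin gene dkc-1 had 121 at -255, with 55.8 and 64.8 in the replicates, and the Nhp2 gene Y48A6B.3 had 68.5 at -311, with 37.1 and 33.0. The Nop10 gene nola-3 and the Gar1 gene garr-1 had none. The assembly ATPases ruvb-1 and ruvb-2, the nucleolar dao-5 and the cap enzyme gene tgs-1 had none. All 4 summits were 236 to 311 bp upstream, where the summits at protein-coding genes with one within 500 bp had a median of -145 and an interquartile range of -273 to 11.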

How the data were processed

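Peak lists from 2 replicates of MADF-3 ChIP-seq on build ce11, per the labels, were used as deposited. The authors' lists give a signal per peak, a score and, in the ranked lists, a −log10 of the irreproducible discovery rate (IDR, a measure of how well the ranking of a peak repeats between sets). The aligner, the peak caller and all versions were not given in the sources used here, and control tracks were not used here. Depth is unknown, as the lists hold no read counts.

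From these files, summits (1-based) were set against genes of Ensembl release 115. All 346 snoRNA genes had identical coordinates in RefSeq, and all 391535 peak rows of the 8 lists ended within the chromosomes. A peak's signal in a replicate is the highest of an overlapping peak in that replicate's ranked list. Shares have exact Clopper-Pearson 95% intervals, and no test was run, since there is 1 group. Scripts used Python 3.11.15, pandas 2.3.3, numpy 2.4.6, scipy 1.17.1 and matplotlib 3.10.9, and were tested on simulated data.

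The members, lists, letter pairs and the 100 bp bound were chosen with earlier results of these data known. Genes named were the 15 with the highest signal, the 5 strongest of each location, those with a summit within 100 bp, the 3 on either side of 500 bp and those in counts of 5 or fewer. The other genes named, among them members of hosts with several snoRNA genes and holders of a letter pair, were chosen after their values were seen. Alternatives were other windows, lists, replicates and location definitions.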

Additional observations from a re-analysis of the deposited data

How the results depend on the processing

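No paired analysis was possible because the 2 replicates form 1 group. Of the 42 alternative values, 25 stayed within the bounds set for them and 17 moved. Leaving out 1 replicate moved the count of members with a summit from 102 to between 48 and 63, of intronic members from 44 to between 23 and 27, of independent members from 41 to between 18 and 23, of summits nearer to the snoRNA from 89 to between 42 and 52, and of upstream summits from 58 to between 30 and 34. Each replicate's own list is shorter, with 863 and 962 peaks against 2741. The median position moved from -42.5 to between -46 and -31. For intronic members a 200 bp window gave 25, and a peak over the annotated gene also gave 25. The stronger 1370 peaks left 59 summits nearer to the snoRNA. The strongest ranked candidate was upstream at 94 members, an alternative added after the data were seen. Median replicate signal moved from 43.0 to 40.5 with the nearest ranked summit of each replicate; the cause was not tested. Narrower letters cut the A/B-like pair from 21 to 11 members, also added after the data were seen. The count of 102 was 73 and 133 with windows of 200 and 1000 bp, and 93 when all members were scored anew with the conservative list. The 93 need not all be among the 102, since a conservative peak overlapped the peak of 85 of the 102. Summit positions are limited by the difference between replicates, which had a median of 25 bp and a maximum of 290 bp. At the 58 members with an upstream summit the maximum was 126 bp.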

Other observations

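WBGene00220185, an independent member on chromosome IV that holds CGNAAC and TGTCGG, had no thresholded summit within 500 bp. Its ranked candidate, 428 bp upstream, had a signal of 350 and a score of 1000, above the lowest score of 830 in the thresholded list, and yet was not in that list. It was 1 of 103 members whose strongest candidate reached that score, and the other 102 had a thresholded summit.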
